A study of Mus musculus with 12 samples.

Results

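The 4 unmated control arrays of a mouse endometrium experiment were examined for how they differed from each other. They were 4 of 12 Affymetrix Mouse Gene 1.0 ST arrays, each of which held RNA pooled from 4 CBAF1 females, the F1 offspring of CBA and C57Bl/6 mice. Controls were unmated virgins, and the other 8 arrays held females 8 h after mating with intact (4 arrays) or vasectomised (4 arrays) BALB/c males, with 16 females behind each group. All females were 9-16 weeks of age, the endometrium was scraped from the uterus, and 300 ng of RNA was used for each array. Sample labels give the controls as estrus, while the methods place their collection in the evening of pro-estrus (2000 h), and no label gives the cycle stage of a single pool or of a mated female at collection. A difference between arrays is thus one between pools of 4 females, and the number of arrays limits the precision of every spread given here.

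Of 35556 transcript clusters, 21789 carried exactly 1 gene symbol, and 13065 of these, from 11921 genes, had a mean log2 signal of at least 7 over the 4 control arrays. These 13065 clusters are called the measured genes, and they were ranked by their standard deviation (SD, log2 units) over the 4 control pools. At the edge of the level threshold, the measured genes just inside were Dnm3, Bnc1 and Zfp518b, with control SDs of 0.299, 0.129 and 0.130. Those just outside were Dpysl4, Ecel1 and Kcnh2, with SDs of 0.140, 0.229 and 0.0866. The ranking is a description and carries no test.

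The mouse estrous cycle lasts a few days, and the endometrium is rebuilt in each one. Rising estrogen in pro-estrus drives epithelial cells to replicate their DNA and divide, and fills the stroma with fluid and leukocytes, while progesterone holds epithelial division back and acts on the stroma. These programs of division, matrix turnover and hormone response follow each other through the cycle.

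The label of the tissue was checked against marker genes. Genes of epithelium (19 of 20 listed were measured genes) had a mean log2 signal of 11.47, 11.48, 11.57 and 11.46 in control pools 1 to 4, and those of stroma (27 of 30) 10.17, 10.05, 9.40 and 9.34. Esr1, the estrogen receptor, read 12.44, 12.32, 12.46 and 12.39. Epithelium, stroma and steroid receptors were thus well represented in every pool. Of 20 listed T and NK cell genes 18 could be read on the array, and only 2 reached a control mean of 7. Of 12 listed red cell genes only 3 could be read, and none of these reached it, which is too few to judge the amount of blood.

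Control pools were spread more widely than pools of mated females. Median SD over the measured genes was 0.140 among controls, 0.0940 among intact-mated and 0.0892 among vasectomised-mated pools, so the control median was 1.49 and 1.57 times the mated ones. In the controls 600 clusters of 578 genes (4.59% of measured genes) had an SD of at least 0.5, against 60 (0.459%) in the intact and 56 (0.429%) in the vasectomised group. An SD of at least 1 was reached by 42 clusters in controls, 1 after intact and 0 after vasectomised mating. The control SD was above both mated SDs for 8364 measured genes (64.0%) and below both for 1922 (14.7%). Of the 600 clusters, 522 had an SD under 0.5 in each mated group. As the 600 were chosen by their control SD, this count is a description and no evidence of wider spread in controls. Because the level threshold was set on the controls alone, the mated groups are read over genes chosen for their control level.

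**Figure D1:**
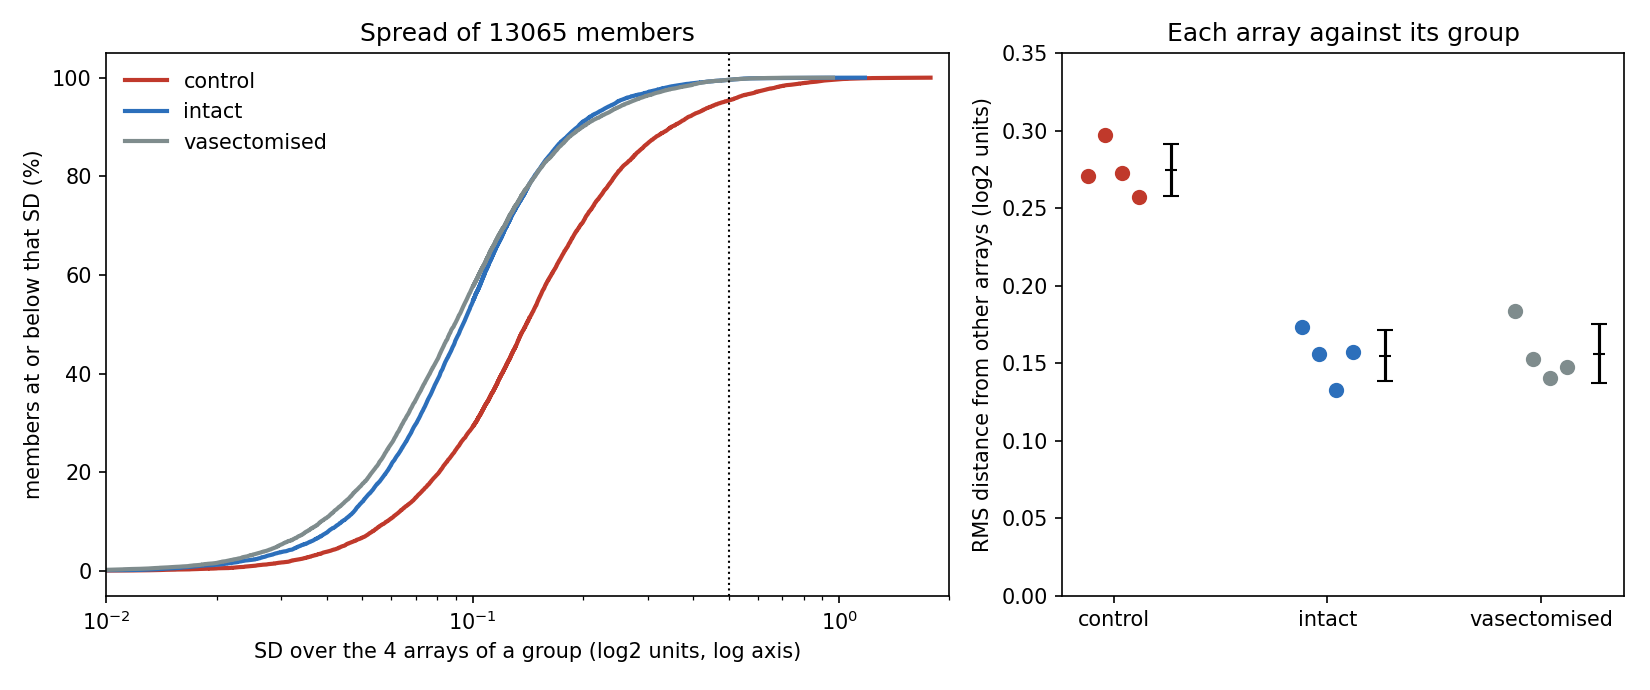
Left, share of the 13065 measured genes (y axis, percent) at or below a given SD over the 4 arrays of a group (x axis, log2 units on a log axis), with a dotted line at 0.5; right, root mean square log2 distance of each array from the mean of the other 3 arrays of its group, with the group mean and SD (bar) beside the points. The control curve lies to the right of both mated curves, and the 4 control arrays lie between 0.257 and 0.297, above all 8 mated arrays.

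The same was seen array by array. Each array was set against the mean of the other arrays of its group by the root mean square log2 distance over the measured genes. It was 0.271, 0.297, 0.273 and 0.257 for control pools 1 to 4, 0.173, 0.156, 0.133 and 0.157 for intact and 0.184, 0.153, 0.140 and 0.147 for vasectomised pools. No control array overlapped with a mated one. Means were 0.274 ± 0.0167 (SD, n = 4) for controls, 0.155 ± 0.0166 (SD, n = 4) for intact and 0.156 ± 0.0191 (SD, n = 4) for vasectomised. The control mean was 1.77-fold the intact and 1.76-fold the vasectomised one, with a two-sided exact permutation p = 0.0286 for each, the smallest that 4 arrays against 4 allow. The differences in mean were 0.120 and 0.118, and they fell to 0.0577 and 0.0620 over all transcript clusters, with the same exact p in each. These distances within a group are not independent of each other, since every array enters the reference of the others.

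Gene by gene, limma fitted to the absolute deviations from the group mean called 1633 of all 35556 clusters (4.59%) more variable in controls than in mated pools at an adjusted p of at most 0.05, and 51 (0.143%) less variable. Among the measured genes the calls were 1030 more and 6 less variable. An F test of control against pooled mated variance called 0 clusters after adjustment, with a lowest adjusted p of 0.0542 and 3474 more and 572 less variable clusters at an unadjusted p under 0.05, where limma had 5953 and 856. Leaving out any 1 of the 4 control arrays left limma with 0 calls in either direction. Single-gene calls of variability were therefore not stable, and genes with 2 high and 2 low pools of similar size are favored by the deviation test.

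Control pools 3 and 4 were closest to each other, with 89 measured genes at least 2-fold apart, and 86 of these were higher in pool 4. Pools 1 and 4 differed by at least 2-fold in 429 measured genes, 280 of them higher in pool 1, and pools 2 and 3 in 416, 371 of them higher in pool 2. For pools 1 and 2 the count was 182, with 161 higher in pool 2. Pool 1 exceeded pool 3 in 255 of 260 such genes, and pool 2 exceeded pool 4 in 256 of 265. Within the mated groups a pair of arrays differed in 1 to 45 (intact) or 5 to 52 (vasectomised) measured genes. Every pair of control pools was thus further apart by this count than every pair within a mated group.

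Most of the variable genes followed 1 of 2 orders of the pools. In 389 of the 600 clusters with an SD of at least 0.5 (64.8%), both pool 1 and pool 2 lay above pools 3 and 4, against 25.2% of all measured genes. In 163 (27.2%), pools 2 and 4 lay above pools 1 and 3, against 21.9% of all. Only 23 had pools 3 and 4 on top (3.83%, against 25.4% of all), and 16 had pools 1 and 3 on top. The first principal component of the control arrays held 57.8% of their variance and placed pools 1 and 2 at 13.9 and 21.4 and pools 3 and 4 at -20.2 and -15.1. The second held 35.1% and placed pools 2 and 4 at 12.8 and 14.5 and pools 1 and 3 at -17.8 and -9.53. The third held the remaining 7.04%. The median log2 signal over all clusters was also slightly higher in pools 1 and 2 (7.31 and 7.32) than in pools 3 and 4 (7.26 and 7.25). Over the measured genes alone the median was 8.89, 8.92, 8.83 and 8.91 in pools 1 to 4, highest in pools 2 and 4. With every array centred on its median over all clusters, 558 clusters had an SD of at least 0.5.

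**Figure D2:**
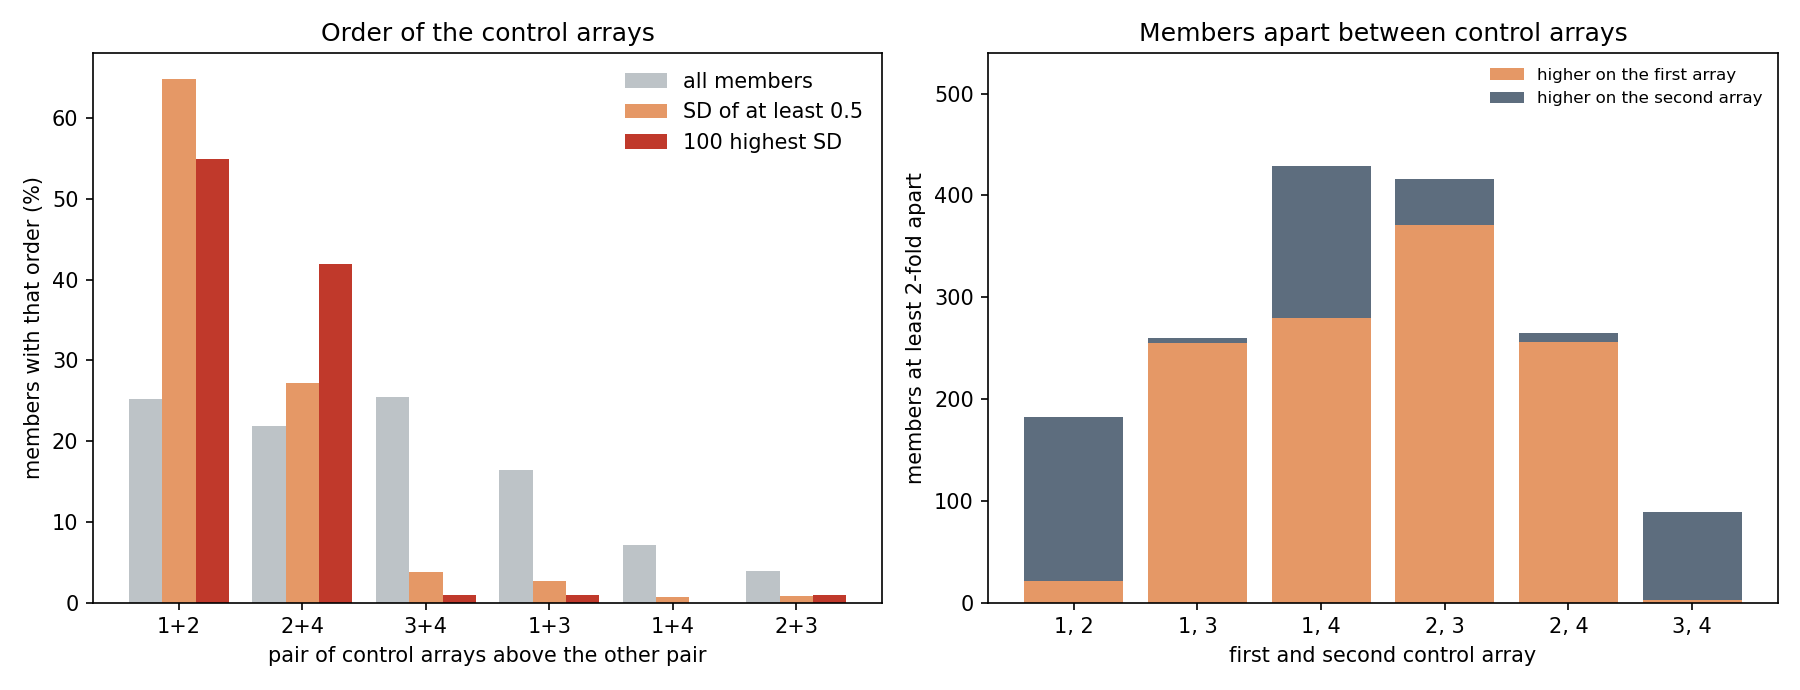
Left, percent of measured genes (y axis) in which both control pools of the pair named on the x axis lie above the other 2, for all 13065 measured genes, the 600 with an SD of at least 0.5 and the 100 with the highest SD; right, number of measured genes at least 2-fold apart between 2 control pools, split by which pool was higher. Pools 1 and 2 on top (64.8%) and pools 2 and 4 on top (27.2%) hold most of the variable genes, and pools 3 and 4 differ least, with 89 genes.

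The first order, with pools 1 and 2 high, was led by genes of the matrix and of secreted signals. Plat, the tissue plasminogen activator, had the highest SD of all (1.78), with 9.13, 10.83, 7.33 and 6.998 in control pools 1 to 4, a 14.3-fold range. In the intact group Plat lay between 9.87 and 10.40 and in the vasectomised group between 8.87 and 9.82, inside the range of the controls. Lgr5, a Wnt-amplifying receptor that marks stem and epithelial cells in several tissues, read 7.54, 9.72, 6.08 and 6.13 (SD 1.71). Here pool 2 alone was far up, and all 8 mated arrays lay between 5.99 and 6.40, next to pools 3 and 4. The intact mean was 1.18 and the vasectomised mean 1.15 log2 units below the control mean, and neither difference passed (limma, adjusted p = 0.278 and 0.340).

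Mmp11, a metalloproteinase made by stroma, read 10.58, 10.72, 8.00 and 7.67 (SD 1.63), so that the pools fell into 2 high and 2 low. Mmp2, a gelatinase that cuts basement membrane collagen, did the same with 11.10, 11.18, 9.08 and 9.14 (SD 1.17). Sfrp2, a secreted Wnt modulator, read 9.79, 9.82, 7.25 and 6.94 (SD 1.57). In each of the 3 genes both high pools lay well above both low ones, and for Sfrp2 all mated arrays lay in the gap between them, from 7.92 to 8.48 after intact and from 8.51 to 9.57 after vasectomised mating. Gpnmb, a transmembrane glycoprotein of macrophages, read 8.42, 8.41, 6.17 and 5.94 (SD 1.36).

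Other genes in this order were Pamr1 (SD 1.63), Cped1 (1.23), Aspg (1.11) and Sparcl1, a matrix glycoprotein related to SPARC (1.14). Rxfp1, the relaxin receptor, read 10.46, 10.38, 8.47 and 8.15. Stra6, which takes up retinol from its plasma carrier, read 9.0, 10.89, 7.86 and 7.72 (SD 1.46). Tnc, the matrix protein tenascin C, read 7.58, 8.67, 6.19 and 6.25 (SD 1.19). Stra6 and Tnc shared with Plat and Lgr5 a pool 2 well above pool 1, whereas Mmp11, Mmp2 and Sfrp2 had both at nearly the same level. By Euclidean distance of values centred over the 4 control pools, the genes nearest to Plat among those with an SD of at least 0.5 were Lgr5 (0.530), Stra6 (0.695), Tnc (1.05), Mmp11, Gstm7 and Tgfbi.

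**Figure D3:**
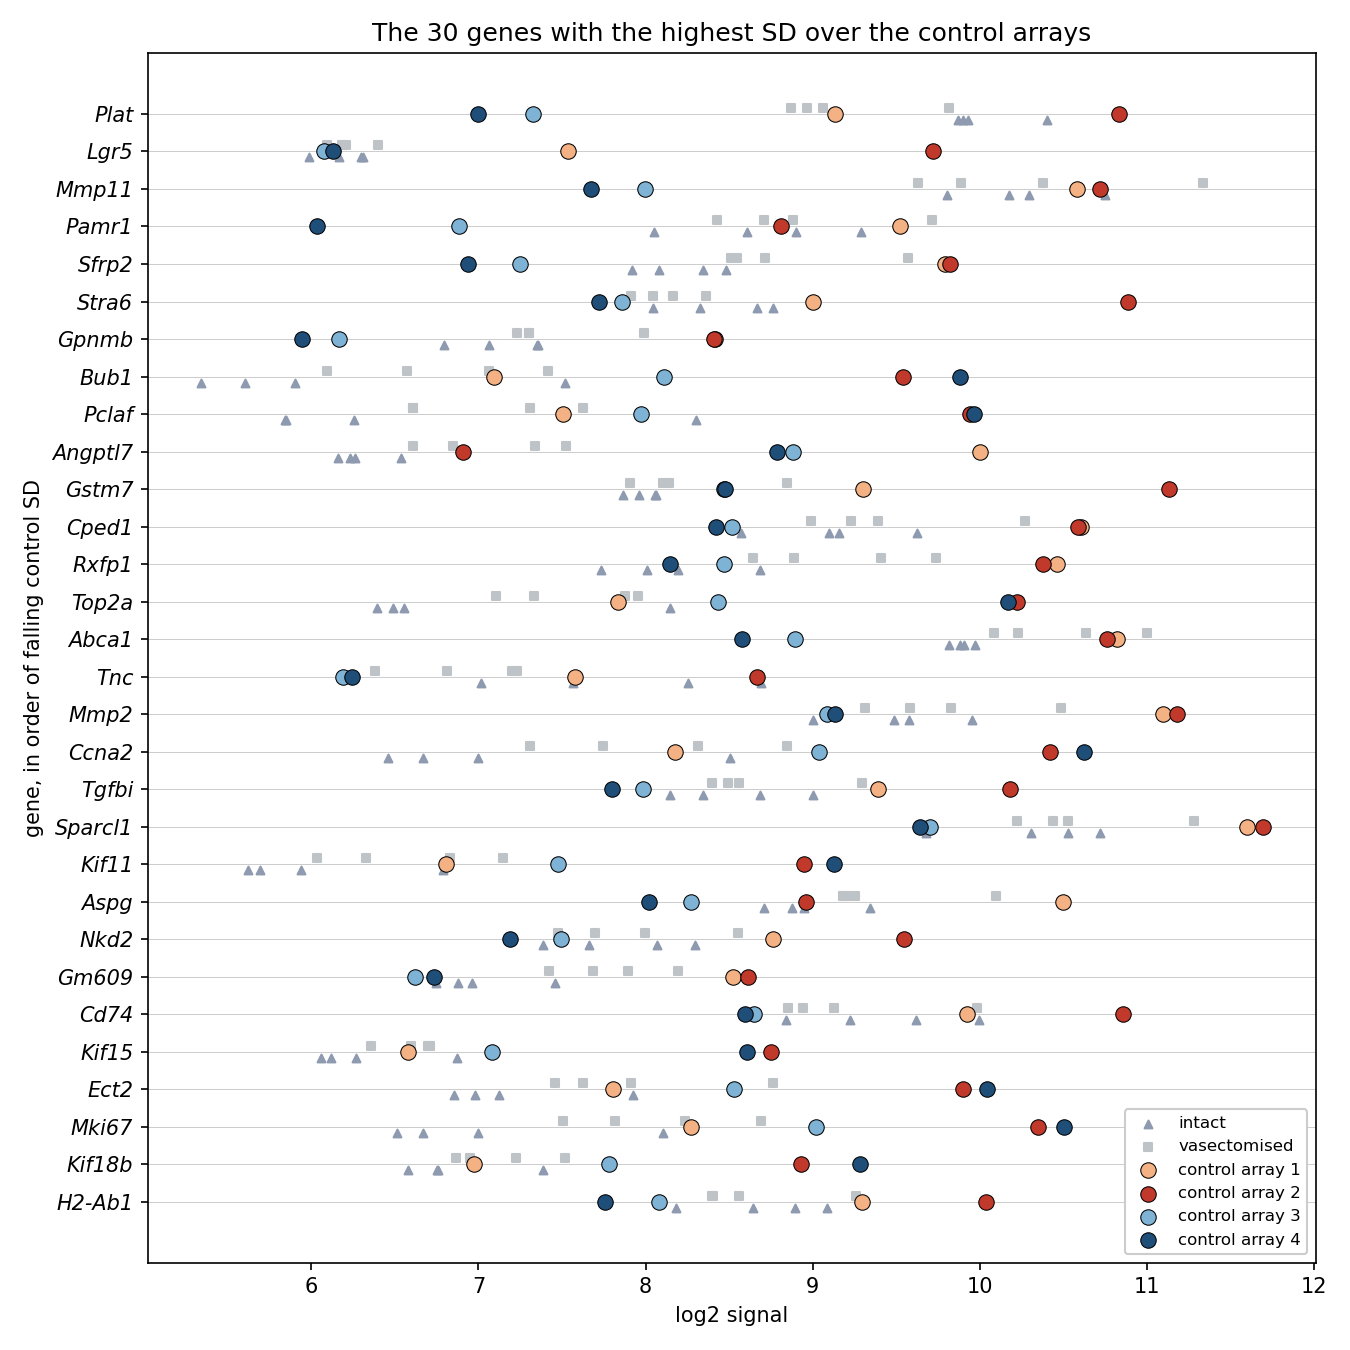
Log2 signal (x axis) of the 30 genes with the highest control SD (y axis), with 1 coloured circle for each control pool, triangles for the 4 intact arrays and squares for the 4 vasectomised arrays. Most genes have pools 1 and 2 to the right, the division genes such as Bub1 and Mki67 have pools 2 and 4 to the right, and Angptl7 is low in pool 2 alone.

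The matrix metalloproteinases and their inhibitors as a list had 12 measured genes, 7 with an SD of at least 0.5 (4.59% of all measured genes passed this mark), and a median SD of 0.625 against 0.209 in intact and 0.298 in vasectomised pools. Timp3, which inhibits metalloproteinases while bound to the matrix, read 10.97, 10.44, 9.14 and 9.03, and Timp2 10.82, 10.38, 9.07 and 8.99. Proteases and their inhibitors thus lay on the same side, and in 8 of the 12 genes both pools 1 and 2 were above pools 3 and 4. The mean level of the list was 9.56, 9.61, 8.75 and 8.47.

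Stromal markers varied less, but in one order. Of 27 measured genes, 10 had an SD of at least 0.5, the median SD was 0.394, and 25 had pools 1 and 2 above pools 3 and 4, compared with 25.2% of all measured genes. Pdgfrb, the receptor by which pericytes and fibroblasts answer platelet-derived growth factor, read 9.83, 9.72, 8.06 and 7.87 (SD 1.05). Pdgfra, which marks fibroblasts, read 10.51, 10.17, 8.94 and 8.92 (SD 0.825), and Fn1, fibronectin, 11.37, 11.33, 10.03 and 9.97. Among mated pools the stromal genes also spread, with a median SD of 0.335 (intact) and 0.328 (vasectomised), and the level of the list ran from 8.84 to 9.57 and from 9.17 to 9.82. In RNA from scraped tissue, fewer cells of a type and less RNA per cell cannot be told apart.

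Markers of blood vessels, of macrophages and of dendritic cells and MHC class II moved with the stroma. Of 15 genes of blood endothelium, 14 had pools 1 and 2 on top and 6 had an SD of at least 0.5, and the list level was 8.27, 8.24, 7.57 and 7.49. Emcn, endomucin of capillary and venous endothelium, varied most of these with 8.77, 8.86, 7.07 and 7.03 (SD 1.02), whereas Pecam1 read 8.40, 8.21, 7.33 and 7.24. For macrophages, 10 of 12 genes had this order, 6 had an SD of at least 0.5 and the list level was 8.95, 9.03, 8.27 and 8.08. Lyz2, the lysozyme of myeloid cells, read 8.94, 9.43, 7.44 and 7.35 (SD 1.06), and C1qb, a chain of complement C1q, 9.61, 9.99, 8.70 and 8.57.

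Genes of dendritic cells and of MHC class II, which presents peptides to T helper cells, gave 7 of 10 genes in this order and 5 with an SD of at least 0.5, with list levels of 8.22, 8.55, 7.63 and 7.47. Cd74, the invariant chain, read 9.92, 10.86, 8.65 and 8.59, and H2-Ab1 9.30, 10.04, 8.08 and 7.76. Lists of other leukocytes had few measured genes and did not share 1 order. Pools 3 and 4 were on top in all 3 B and plasma cell genes and in 2 of 3 neutrophil genes. Pools 1 and 2 were on top in 2 of 4 mast cell and eosinophil genes, and T and NK cells had 1 of 2 genes each way. The part of vessel and leukocyte markers in the differences of stromal genes was not tested. Epithelial markers did not share the order, since their list stood between 11.46 and 11.57, and 1 of 19 genes, Cldn4 (10.51, 11.25, 10.32 and 10.06), had an SD of at least 0.5.

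Smooth muscle, the tissue below the endometrium, differed little between control pools as a list. Its 17 measured genes had a level of 8.95, 8.84, 8.77 and 8.74, and 6 had pools 1 and 2 on top, against 25.2% of all measured genes. The median control SD, 0.186, was below those of intact (0.376) and vasectomised (0.328) pools, and only 5 of 17 genes varied more in controls than in both mated groups. Mylk, the kinase that starts smooth muscle contraction, read 9.03, 8.79, 7.93 and 7.93 and Pgm5 9.06, 9.12, 8.01 and 7.93, while Actg2, enteric smooth muscle actin, was higher in pools 3 and 4 (9.40, 9.29, 10.06 and 9.88). Fat cell markers had 0 of 12 genes with an SD of at least 0.5.

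Division genes made up the second order, with pools 2 and 4 high. The mitosis and spindle list had 36 measured genes, of which 34 had an SD of at least 0.5 and all 36 had pools 2 and 4 above pools 1 and 3 (21.9% of all measured genes had this order). Its median SD was 0.883, against 0.359 in intact and 0.357 in vasectomised pools. The list level was 7.46, 9.08, 8.08 and 9.32 in control pools 1 to 4, so that the mean signal of mitotic genes in pool 4 stood 1.86 log2 units above that of pool 1, and pool 3 lay above pool 1.

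Mki67, the Ki-67 protein of cycling cells, read 8.27, 10.35, 9.02 and 10.50 (SD 1.07). Top2a, the topoisomerase that untangles sister chromosomes, read 7.83, 10.22, 8.43 and 10.17 (SD 1.22). Bub1, a kinase of the spindle checkpoint, read 7.10, 9.54, 8.11 and 9.88 (SD 1.29). In each of these genes all 4 values of the intact group lay below both high control pools. Ccna2, cyclin A2, read 8.18, 10.42, 9.04 and 10.63, and Kif11, the motor that pushes spindle poles apart, 6.81, 8.95, 7.48 and 9.13.

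DNA replication genes shared the order but not the size. Of 33 measured genes, 32 had pools 2 and 4 on top and 16 had an SD of at least 0.5, and the list level was 7.85, 8.80, 8.02 and 8.72. Pole, the catalytic subunit of DNA polymerase epsilon, read 6.57, 8.35, 6.55 and 7.93 (SD 0.928). Rrm2, the ribonucleotide reductase subunit that supplies deoxynucleotides, read 7.49, 9.10, 7.95 and 9.11 (SD 0.822), and Mcm5, of the replicative helicase, 8.47, 9.80, 8.58 and 9.74. Pool 2 was the highest by the replication list and pool 4 by the mitosis list. The median SD of the replication genes, 0.462, was near that of intact pools (0.375), where array 2 stood out at 8.34 against 7.52 to 7.63 for the others, and above that of vasectomised pools (0.155).

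The promoters of 4 mitosis genes that share this order are printed to show the sequence elements they hold. They are the 150 bases before the first listed RefSeq start of each gene in build GRCm38.p6, read 5′ to 3′ on the strand of the gene. Capitals mark CCAAT (or ATTGG on the other strand), the box bound by NF-Y, and TTTGAA (or TTCAAA), the cell cycle homology region. Plk1, polo-like kinase 1, was chosen after its values were seen.
Mki67, chr7:135716380-135716529, minus strand: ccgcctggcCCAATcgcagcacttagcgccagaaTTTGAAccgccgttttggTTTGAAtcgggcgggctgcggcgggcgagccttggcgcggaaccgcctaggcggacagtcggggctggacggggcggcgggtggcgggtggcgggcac
Top2a, chr11:99024190-99024339, minus strand: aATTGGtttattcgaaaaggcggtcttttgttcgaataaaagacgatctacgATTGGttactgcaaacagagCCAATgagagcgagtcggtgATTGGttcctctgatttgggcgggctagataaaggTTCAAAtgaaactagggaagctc
Plk1, chr7:122159285-122159434, plus strand: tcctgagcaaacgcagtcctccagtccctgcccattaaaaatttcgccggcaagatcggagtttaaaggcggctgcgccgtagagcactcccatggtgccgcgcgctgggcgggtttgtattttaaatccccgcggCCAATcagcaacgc
Bub1, chr2:127831860-127832009, minus strand: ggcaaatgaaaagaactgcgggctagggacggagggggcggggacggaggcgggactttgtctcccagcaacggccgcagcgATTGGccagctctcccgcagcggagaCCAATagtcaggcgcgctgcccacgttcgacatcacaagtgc
Over the 250 bases before the start, CCAAT on either strand was found in 23 of the 31 mitosis genes with a listed promoter (74.2%) and in 17 of 29 replication genes (58.6%), against 34.5% of all 27025 genes with one and 35.3% of the 9508 measured genes with one. TTTGAA was found in 10 of 31 mitosis genes (32.3%) and 3 of 29 replication genes (10.3%), against 16.3% of all and 10.3% of measured genes. The 2 motifs do not overlap in letters. A match describes the letters in this window and does not show that a factor binds, and no match leaves other sequence forms unread.

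The mean level of the estrogen-responsive list stayed between 10.55 and 10.64, while its genes took different orders. Of 33 measured genes, 11 had pools 1 and 2 on top and 10 had pools 3 and 4 on top. The median SD was 0.190, against 0.140 over all measured genes. An SD of at least 0.5 was reached by 3 of the 33 (4.59% of all measured genes passed this mark). Those 3 were Ccn2, a matrix-associated growth factor (9.85, 9.42, 8.56 and 8.45), Igf1, the growth factor of stroma that acts on epithelium (9.14, 10.10, 8.47 and 9.14), and Ccnd1, the cyclin that opens the cell cycle (10.49, 11.33, 10.26 and 11.28). Ccnd1 thus followed the order of the division genes. Ltf, lactotransferrin, a classic estrogen-induced secretion, read 13.40, 13.37, 13.27 and 13.02, and Greb1, an estrogen receptor cofactor, was lower in pool 2 alone (10.87, 10.13, 10.85 and 10.94).

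Esr1 had an SD of 0.0626, above that of the reference gene Actb (0.0283) but under the median of the 11 reference genes (0.116). Pgr, the progesterone receptor, read 10.38, 10.48, 9.94 and 10.09 (SD 0.249). Progesterone-responsive genes had a median SD of 0.306 and 5 of 23 genes at an SD of at least 0.5, and 14 of 23 had pools 1 and 2 on top. Among them were the stromal homeobox genes Hoxa10 (8.46, 8.79, 7.67 and 7.49) and Hoxa11 (8.22, 8.40, 7.35 and 7.10), and Sfrp4, another secreted Wnt modulator (8.42, 8.34, 6.58 and 6.65). Hoxa11 is also on the stroma list, so this count is not separate from the stromal one.

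Steroid-converting enzymes went both ways. Akr1c18, which inactivates progesterone, read 6.57, 6.78, 8.47 and 7.96 (SD 0.916), and was thus lower in pools 1 and 2. Akr1c14, a hydroxysteroid dehydrogenase, had the opposite order with 8.33, 8.72, 6.93 and 7.38 (SD 0.826). Hsd11b2, which inactivates glucocorticoids, was highest in pool 1 (11.85, 10.99, 10.90 and 10.63). These 3 were the only ones of 15 steroid receptor and enzyme genes with an SD of at least 0.5, and near-identical copies exist in the Akr1c family, so their probes may share signal.

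Lipid genes did not vary as 1 group. Cholesterol synthesis genes moved together at a moderate size, with a median SD of 0.366 and 1 of 20 at an SD of at least 0.5, and the level of the list was 9.09, 9.33, 9.47 and 9.90. In 13 of 20 genes pools 3 and 4 were above pools 1 and 2, against 25.4% of all measured genes. Sqle, squalene epoxidase, read 8.81, 9.24, 9.32 and 10.06 (SD 0.518). Lss, lanosterol synthase, read 8.31, 8.67, 8.52 and 9.44, and Idi1, which isomerizes isopentenyl diphosphate, 8.94, 9.45, 9.43 and 10.14. Pool 4 was highest and pool 1 lowest in all 3. In intact pools the list stood at 9.93 to 10.27, above every control pool, and 9 of 20 genes were higher than in controls by limma (1.95% of all 35556 clusters were called higher after intact mating). In vasectomised pools it stood at 8.87 to 9.48.

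Promoters of Idi1 and of Hmgcs1, the synthase that starts the pathway and was chosen for its promoter, are printed because the genes of this list held CCAAT most often. Capitals mark CCAAT or ATTGG and the sterol response form TCACNCCAC.
Idi1, chr13:8885456-8885605, plus strand: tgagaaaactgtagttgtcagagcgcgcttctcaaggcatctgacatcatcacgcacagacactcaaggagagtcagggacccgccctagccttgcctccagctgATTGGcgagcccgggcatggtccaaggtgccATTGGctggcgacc
Hmgcs1, chr13:119690201-119690350, plus strand: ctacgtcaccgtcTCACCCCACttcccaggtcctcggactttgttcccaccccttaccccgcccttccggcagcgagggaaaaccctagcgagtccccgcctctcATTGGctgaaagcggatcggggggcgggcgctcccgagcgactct
CCAAT was found in 15 of 16 cholesterol genes with a listed promoter (93.8%). The sterol form was found in 1 of 16 (6.2%), Hmgcs1, and in 1.0% of all promoters, and TTTGAA in 1 of 16 (6.2%).

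Lipid efflux genes with the highest SD took the stromal order instead. Abca1, which exports cholesterol from cells, read 10.82, 10.76, 8.90 and 8.58 (SD 1.19), and its SD was 0.0633 in intact pools. Apoe, the apolipoprotein that carries the exported lipid, read 10.54, 11.19, 9.62 and 9.60, and Abcg1 8.42, 8.49, 7.69 and 7.44. They were the 3 of 16 genes of fatty acid oxidation and lipid efflux with an SD of at least 0.5. The list as a whole did not share the order, since 5 of the 16 had pools 1 and 2 on top and 6 had pools 3 and 4 on top. Pool 1 was thus above pool 4 for these 3 efflux genes and below it for the 3 synthesis genes given above. Of 21 fatty acid synthesis genes only Fads1, the delta-5 desaturase (8.93, 8.95, 7.70 and 7.81), passed this mark, while Elovl6 and Scd1 were highest in pool 4 (9.60 and 9.61).

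**Figure D4:**
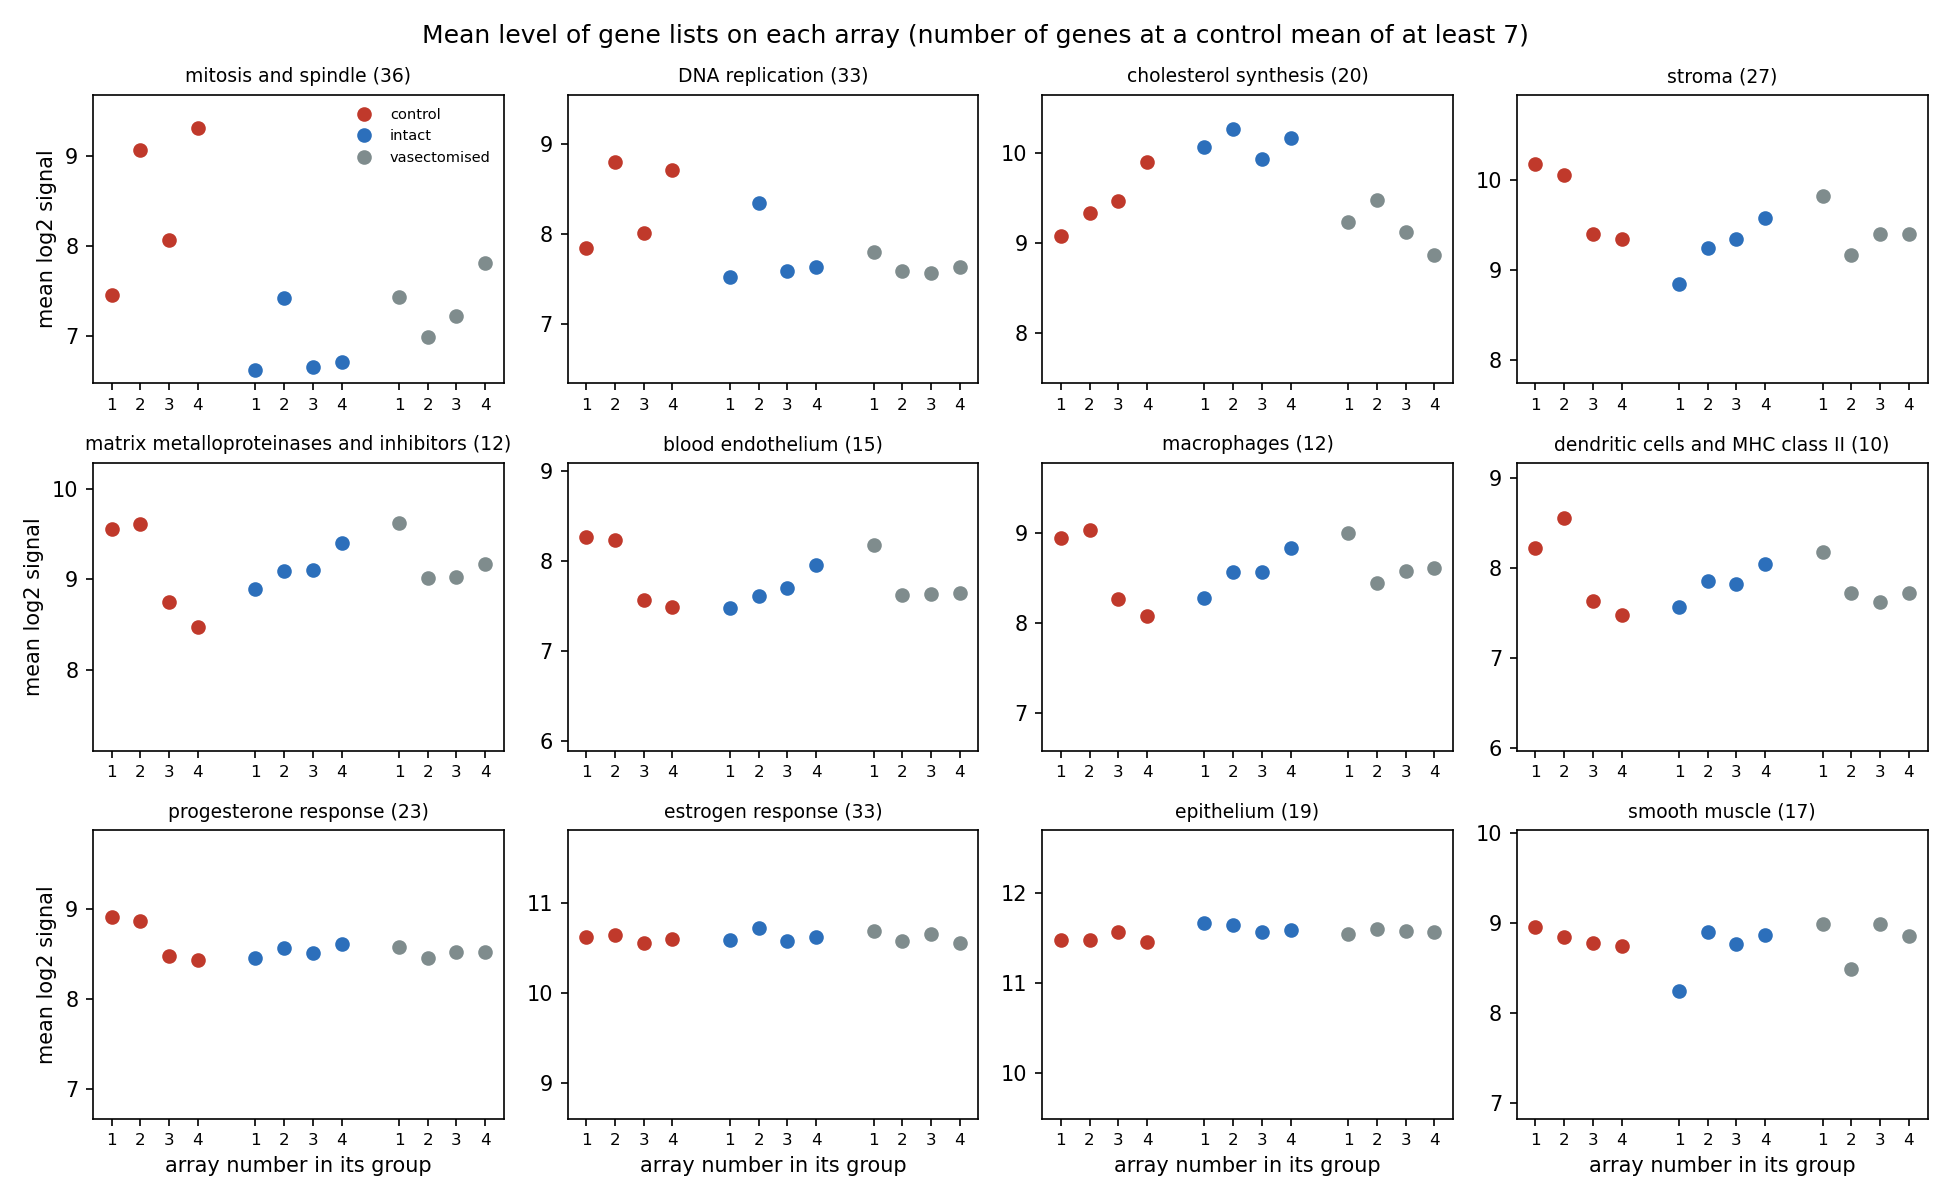
Mean log2 signal (y axis) of 12 gene lists on each of the 12 arrays (x axis, array number within its group), with the number of measured genes in brackets; every panel spans the same number of log2 units. Control pools 2 and 4 lie highest for mitosis (9.08 and 9.32) and DNA replication, pools 1 and 2 for stroma, metalloproteinases, endothelium, macrophages and MHC class II, and epithelium stays between 11.46 and 11.57.

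Pools 1 and 2 stood apart from each other for some genes. Angptl7, a secreted angiopoietin-like protein, read 10.004, 6.91, 8.88 and 8.78 (SD 1.28) and departed from both orders, with pool 2 lowest. Gstm7, a glutathione transferase, had pools 1 and 2 on top but pool 2 well above pool 1 (9.30, 11.13, 8.47 and 8.47), as had Hdc, histidine decarboxylase, which makes histamine (8.11, 9.90, 7.84 and 7.70), and Calb1, calbindin (7.84, 9.15, 7.05 and 7.04). Without pool 2 the SD of Lgr5 was 0.827 and that of Stra6 0.702, so pool 2 sets much of their rank. Pool 1 was highest for clock genes, with a list level of 9.15, 8.74, 8.87 and 8.67. Dbp, a transcription factor with a strong daily rhythm, read 10.24, 9.31, 9.74 and 9.34, and Per3, a period gene, 9.70, 8.66, 9.05 and 8.62.

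The clock list had a median SD of 0.281 and 2 of 16 genes at an SD of at least 0.5. Without pool 1 its median SD was 0.179, so pool 1 decided its spread. In mated pools the clock list was at 8.34 to 8.39 (intact) and 8.36 to 8.64 (vasectomised). Controls were collected at 2000 h, whereas mated females were caged with males late at night and collected 8 h after mating. Time of day and mating thus cannot be told apart for these genes. Immediate early and heat shock genes, which respond to handling, had 2 of 25 genes at an SD of at least 0.5, Egr1 (8.77, 8.95, 7.69 and 7.82) and Atf3 (7.90, 8.35, 7.44 and 7.13).

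Interferon-induced genes had 0 of 26 at an SD of at least 0.5, and 18 of 26 had pools 3 and 4 on top. Their list level was 10.11, 9.97, 10.18 and 10.21. Uterine gland and secretion genes had 2 of 10 at that mark, Calb1 and Dmbt1, a mucosal scavenger protein (7.86, 7.33, 6.51 and 6.68). Neutrophil genes had 1 of 3 measured genes, Ly6g (9.60, 9.32, 10.48 and 10.67), while 15 of 18 neutrophil genes on the array were under a control mean of 7, S100a8 (5.55 to 5.63) and S100a9 (5.73 to 5.99) among them, both named after their values were seen. The mark was passed by 1 of 4 mast cell and eosinophil genes (Hdc) and 1 of 6 genes of mesothelium, oviduct and ovary (Wt1, also made by uterine stroma: 9.52, 9.45, 8.50 and 8.43). It was passed by 0 of 5 squamous epithelium, 0 of 2 lymphatic endothelium, 0 of 2 T and NK cell, 0 of 3 B and plasma cell and 0 of 11 reference genes.

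The spread among controls bears on comparisons with mated females, since a gene that differs between pools needs a larger shift to be called. Of the 100 measured genes with the highest control SD, limma called 34 lower and 2 higher after intact mating (fold-change of at least 1.5, adjusted p of at most 0.05), where 1.55% and 1.95% of all 35556 clusters were called. After vasectomised mating 1 was called higher and 0 lower, where 0.987% and 0.439% of all clusters were called. Among the 13065 measured genes, 415 were called lower and 478 higher after intact mating. After vasectomised mating 209 of them were called higher and 130 lower. The 100 genes were chosen by control values, through the level threshold and the ranking, so their counts are a description and not a test. Both comparisons share the 4 control arrays. The mated mean lay within the range of the 4 control pools for 56 of the 100 genes after intact and for 63 after vasectomised mating. Over all 13065 measured genes the counts were 7001 and 8156, a similar share, so this is not particular to the 100.

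Of the 34 genes called lower after intact mating, 31 had pools 2 and 4 on top among controls and 2 had pools 1 and 2 on top. Among all 100 genes, 42 had the former order and 55 the latter. On the mitosis and spindle list, 33 of 36 measured genes were lower after intact and 1 after vasectomised mating, and on the DNA replication list 5 and 4 of 33. Bub1 fell by 2.57 ± 0.604 log2 units (SE) after intact mating (limma, adjusted p = 0.0176), and its vasectomised mean was 1.87 ± 0.604 lower with an adjusted p = 0.114. Intact values of Bub1 were 5.34, 7.52, 5.60 and 5.90, against 7.10, 9.54, 8.11 and 9.88 in controls, so that intact array 2 overlapped with the control range. Whether the effects of intact and vasectomised mating on these genes differ was not tested here.

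The 3 calls of higher signal among the 100 were Ptgs2 in both comparisons and Hdc after intact mating. Ptgs2, the inducible cyclooxygenase of prostaglandin synthesis, named after its values were seen, read 10.92, 11.19, 10.24 and 9.14 in controls (SD 0.914). It rose by 2.69 ± 0.356 log2 units (SE) after intact mating (limma, adjusted p = 0.000448) and by 1.78 ± 0.356 after vasectomised mating (adjusted p = 0.0157). Hdc rose by 1.48 ± 0.382 after intact mating (adjusted p = 0.0275), to a mean of 9.87, no higher than the 9.90 of control pool 2. The count of 36 called genes after intact mating was 19 without control pool 1, 18 without control pool 4, and 19, 18 and 17 without intact arrays 1, 3 and 4. The count of 1 after vasectomised mating was 12 without control pool 1. The cause of these shifts was not tested.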

How the data were processed

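Log2 values for 35556 transcript clusters were deposited by the authors, who had used RMA background and GC correction and the mean of the probes in Partek Genomics Suite. Versions were not given in the sources used here. Groups came from the sample labels. Deposited values were used without further normalization, in R 4.3.3. Symbols came from the array annotation, in which 21789 clusters had 1 symbol, 1621 several and 12146 none. Where a listed gene had several clusters, that of highest mean was used.

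SDs, orders of the pools and principal components of the controls (centred, not scaled) are descriptions. Variability was tested with limma 3.58.1 on absolute deviations from the group mean, scaled for group size, control minus the mean of both mated groups, and array distances with a two-sided exact permutation test. Mating was tested with limma, 1 mean per group over all 12 arrays. Benjamini-Hochberg correction ran over all clusters. On simulated data the variability test called more unchanged clusters than its adjusted p allows. The p-values measure the spread between pools only.

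The 29 lists held 662 entries, of which 590 were on the array and 434 had a control mean of at least 7. Members and lists were chosen with earlier results of these data known. Genes named were the 30 with the highest control SD, up to 4 of highest SD in each list, a fixed set (Esr1, Pgr, Greb1, Mki67, Top2a, Ltf, C3, Actb, Gapdh, of which C3 and Gapdh were not analysed here), up to 10 with the lowest adjusted p for variability (Kpna2, Tet1, Slc8a1, Gli1, Gpnmb, Cd200, Ntm, Abca1, Uggt2, Znrf3), those next to the level threshold and the 6 nearest to the top gene. Genes outside the rule are marked. Promoters are the first entry of each gene in RefSeq for GRCm38.p6. Alternatives were quantile normalization, median centring, other level thresholds, 1 row per gene, leaving out each array, other variability tests, other sizes of the top list and a replicate block.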

Additional observations from a re-analysis of the deposited data

Results flagged for a closer look

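Of 230 groups of 4 values examined, 9 (3.91%) had 1 array set far apart from the other 3, and chance alone gives about 1 in 20. Among single genes in controls these were Acod1, an enzyme of itaconate synthesis, at 8.11 in pool 2 against 6.68 to 6.82 in the others, Rbp4, the retinol carrier, at 7.89 in pool 1 against 6.85 to 6.99, and Greb1 at 10.13 in pool 2 against 10.85 to 10.94. Among list levels in controls, T and NK cell genes stood at 7.37 in pool 1 against 7.19 to 7.22, and genes of mesothelium, oviduct and ovary at 8.23 in pool 2 against 7.95 to 8.00.

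In mated pools, intact array 2 was apart for DNA replication genes (8.34 against 7.52 to 7.63) and for mitosis and spindle genes (7.42 against 6.63 to 6.71). Vasectomised array 1 was apart for blood endothelium genes (8.18 against 7.63 to 7.65), and vasectomised array 2 for mast cell and eosinophil genes (8.81 against 8.95 to 8.97). None of these differences was tested further.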

How the results depend on the processing

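Under the alternatives run, the difference in array distance kept its direction and an exact permutation p = 0.0286, from 0.0990 to 0.142 (intact) and 0.100 to 0.141 (vasectomised) with 1 array left out. It was 0.0577 and 0.0620 over all transcript clusters and 0.0483 and 0.0533 by the median absolute difference, against 0.120 and 0.118. The ratio of median SDs ran from 1.36 to 1.66 (intact) and 1.43 to 1.74 (vasectomised), the count of clusters with an SD of at least 0.5 from 536 to 675, and the share of the first component from 57.8 to 77.1% with 1 array left out. A control mean of at least 8 left 353 such clusters.

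Clusters called more variable in controls (1633) ranged from 0 to 1796 and those called less variable (51) from 0 to 39 with 1 array left out. The counts were 830 and 15 with deviations from the median, 964 and 19 with squared deviations, and 0 and 0 by the F test. Trend and robust options gave 15, and the measured genes alone 25, less variable clusters. The causes were not tested.

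Among the most variable genes, calls after intact mating (36) ranged from 17 to 44 and after vasectomised mating (1) from 0 to 12 with 1 array left out. Calls after intact mating numbered 17 among 50 genes and 19 in a fit of the controls and 1 mated group alone, where vasectomised calls numbered 0 and 0. A control mean of at least 6, or no minimum, gave 2 vasectomised calls.

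Deviations of same-numbered arrays had correlations across genes from -0.52 to 0.35, with no common sign. These values cannot decide whether the numbers pair the arrays, because many genes moved together in the same orders of the pools. The replicate block gave 1244 more and 36 less variable clusters, and 36 and 1 calls after mating.

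List medians of control SD moved by over 1.5 times for 3 of 28 lists, all without control pool 1 (clock, T and NK cells, and mesothelium, oviduct and ovary). Without 1 control pool, up to 20 of 143 SDs of named genes, some counted under several parts of the naming rule, moved by over 1.5 times.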

Other observations

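Among the genes with the lowest adjusted p for higher variability in controls were 5 with their pools in pairs. Kpna2, an importin alpha, read 9.55, 10.99, 9.62 and 10.93 in control pools 1 to 4 and had SDs of 0.118 in intact and 0.0629 in vasectomised pools. Another Kpna2 cluster, of higher signal, read 9.999, 11.62, 10.05 and 11.55, with SDs of 0.137 in intact and 0.102 in vasectomised pools. Gli1, a transcription factor activated by hedgehog signals, read 7.59, 7.56, 6.80 and 6.78, and Znrf3, a membrane ligase that removes Wnt receptors, 8.97, 9.18, 8.10 and 8.12. Tet1, which oxidizes methylcytosine, read 8.06, 8.04, 6.55 and 6.81, and Cd200, a ligand that restrains myeloid cells, 8.38, 8.15, 6.83 and 6.94. Kpna2 followed the order of the division genes and the other 4 of these 5 that of the stromal genes. An F test called none of them after adjustment.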
